A study of Homo sapiens with 4 samples.

Results

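Cytosolic sulfotransferases, encoded by the SULT genes, were examined in HuH7 cells carrying short hairpin RNA against MKL1 and MKL2, called knockdown here. The members were the listed SULT genes with a probe that the platform annotation assigns to 1 gene. These were 9 of the 18417 genes measured, namely SULT1B1, SULT1C2, SULT1C3, SULT1C4, SULT1E1, SULT2A1, SULT2B1, SULT4A1 and SULT6B1, each with a single probe. The family was taken up with results of this same comparison known, SULT1E1 and SULT2A1 among them. The members were thus chosen by measured values of knockdown against control arrays, and for the probe by the mean over 4 arrays. Their differences are therefore given as a description, and the p-values printed are those of the fit over all genes. The RefSeq table of GRCh38.p14 holds 13 protein-coding SULT genes. Of the others, SULT1A1 had a probe and is described beside the members, and SULT1A2, SULT1A3 and SULT1A4 were not analysed here.

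HuH7 is a human hepatocellular carcinoma line. The series holds 2 arrays of HuH7 cells carrying short hairpin RNA (shRNA) against MKL1 and MKL2 (MKL1/2 shRNA) and 2 of HuH7 cells carrying a negative control shRNA. All cultures were below passage 10, were infected with lentivirus made from the pLKO.1 vector and were selected with puromycin for 7 days, in medium with 10% serum. The titles call the samples biological replicates without saying whether they came from separate infections, so the p-values measure the spread between these samples only. MKL1 and MKL2, now named MRTFA and MRTFB, are coactivators of serum response factor (SRF), which binds CArG boxes in the promoters of cytoskeletal genes.

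Cytosolic sulfotransferases move a sulfate group from the donor PAPS onto hormones, bile acids, drugs and other small molecules, which makes them more soluble and usually inactive at their receptors. SULT1 enzymes act mainly on phenols, including estrogens and thyroid hormones, and SULT2 enzymes on the hydroxyl groups of steroids. The adult liver is a main site of SULT2A1, which sulfates dehydroepiandrosterone (DHEA) and bile acids, and it also holds SULT1E1, the high-affinity estrogen sulfotransferase.

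The arrays gave log2 values with medians between 5.68 and 5.73. Over genes, the SD of the log2 difference was 0.265 between the knockdown arrays and 0.154 between the controls. The probe that lists MRTFA, together with RBM15, read 6.81 and 6.91 in the MKL1/2 shRNA arrays and 7.77 and 7.80 in the control arrays. MRTFB read 6.84 and 7.11 in the MKL1/2 shRNA arrays and 7.20 and 7.22 in the controls. Its difference did not pass (limma adjusted p = 0.448), so a fall of the MRTFB transcript is not shown by these arrays. Of the 9 hepatocyte and hepatoma markers, 8 were measured and HNF4A was not analysed here, and their group means lay between 10.008 and 12.37 in the knockdown arrays and between 9.92 and 12.22 in the controls. Epithelial markers had group means from 8.25 to 11.81 in the knockdown arrays and from 8.41 to 11.89 in the controls. Markers of other cell types were mostly lower, down to 2.87 in the knockdown arrays and 2.70 in the controls for the fibroblast gene DCN. Among these, the leukocyte marker LYZ was high in all 4 arrays, at 12.25 and 12.02 in the knockdown arrays and 12.07 and 12.13 in the controls. The stromal gene LUM read 7.13 and 8.60 in the knockdown arrays and 8.05 and 8.01 in the controls. None of the 26 measured markers of liver, epithelial, stromal, endothelial and leukocyte cells passed the test over all genes.

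The genes for the estrogen and the DHEA sulfotransferase rose in MKL1/2 knockdown cells, and no member of the family passed the test in the other direction. SULT1E1 lay 3.07 higher on the log2 scale (SE 0.308) and SULT2A1 1.00 higher (SE 0.096). SULT1B1 and SULT1C2 were higher in both knockdown arrays and SULT1C4 lower in both without passing the test, and SULT1C3, SULT4A1 and SULT6B1 had overlapping groups. The 2 members that passed an adjusted p of 0.05 in limma, both higher, stand beside 0.0814% of all genes called higher, 0.0923% called lower and 0.174% called in either direction. Since the comparison had been seen before the family was chosen, nothing is read from that count.

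SULT1E1 read 6.73 and 7.69 in the MKL1/2 shRNA arrays and 4.33 and 3.96 in the control arrays. The groups were far apart, and knockdown replicate 1 lay under replicate 2. The mean was 7.21 ± 0.68 in knockdown and 4.14 ± 0.26 in control cells (SD, n = 2 each), and the difference of 3.07 had a 95% interval from 2.32 to 3.82 (limma adjusted p = 0.0382). Among the 18417 genes this log2 difference ranked 1 from the highest. The control values sat close to the lower quartile of all probes, found between 3.99 and 4.02 on the 4 arrays, so no fold is given. In RNA from a whole culture, more cells carrying a transcript and more transcript per cell cannot be told apart.

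SULT2A1 read 7.89 and 7.84 in the MKL1/2 shRNA arrays and 6.90 and 6.82 in the control arrays. Arrays of 1 group lay within 0.1 of each other, far less than the distance between the groups. The mean was 7.86 ± 0.038 in knockdown and 6.86 ± 0.059 in control cells (SD, n = 2 each), a 2.01-fold higher level with a log2 difference of 1.00 (95% interval 0.77 to 1.24, limma adjusted p = 0.0329). Both calls were lost when either control array was left out, as were those of every other gene. Without control replicate 1 the limma adjusted p was 0.486 for SULT1E1 and 0.684 for SULT2A1, and without control replicate 2 it was 0.53 and 0.608, while the log2 differences stayed between 2.88 and 3.25 for SULT1E1 and between 0.96 and 1.05 for SULT2A1. With 1 control array the fit takes its spread from the knockdown arrays. Both calls were also lost when all probes were tested, at a limma adjusted p of 0.208 for SULT1E1 and 0.186 for SULT2A1, and without variance moderation, at 0.475 and 0.418. Without knockdown replicate 1 or 2 the log2 differences were 3.55 and 2.59 for SULT1E1 and 0.98 and 1.03 for SULT2A1. Both genes passed there, but the spread then comes from the 2 control arrays alone, the pair closest to each other, and 299 and 781 of all genes passed.

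**Figure D1:**
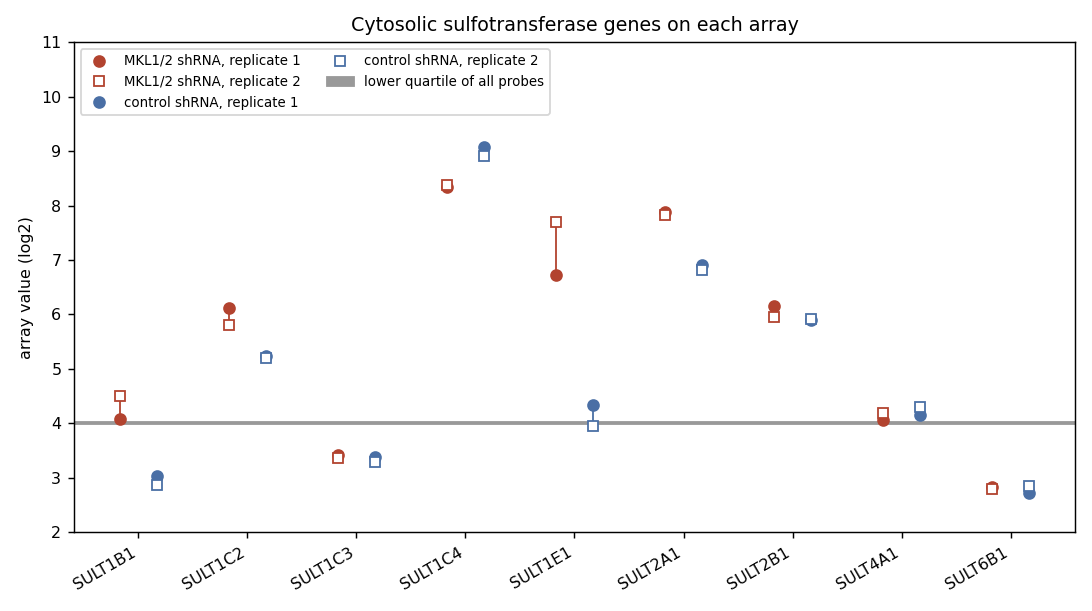
Log2 array value of each sulfotransferase gene, with 1 point per array, MKL1/2 shRNA left of control shRNA, a line joining arrays of 1 group and a grey band at the lower quartile of all probes. SULT1E1 was at 6.73 and 7.69 in knockdown against 4.33 and 3.96 in control arrays, and SULT1C3 and SULT6B1 stayed below the band in all 4; levels of different genes come from different probes and are not comparable.

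The promoters of the members that rose, and of SULT1B1, which lies next to SULT1E1 on chromosome 4, are shown because SRF sites are a route by which MKL proteins reach promoters. Each sequence is the 250 bases before the transcription start in RefSeq (GRCh38.p14), 5′ to 3′ on the strand of the gene, which is the minus strand for all 3. SULT1E1 is at chr4:69860146-69860395, SULT2A1 at chr19:47886316-47886565 and SULT1B1 at chr4:69760621-69760870. Capitals mark matches to 4 motifs searched on both strands, namely the CArG box bound by SRF, GGAATG bound by TEAD factors, the nuclear receptor half-site AGGTCA and the TATA box TATAAA.
SULT1E1: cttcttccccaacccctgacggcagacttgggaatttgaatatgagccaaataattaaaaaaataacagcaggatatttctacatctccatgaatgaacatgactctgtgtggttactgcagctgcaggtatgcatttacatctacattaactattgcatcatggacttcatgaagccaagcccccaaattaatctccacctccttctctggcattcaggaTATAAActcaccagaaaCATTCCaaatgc
SULT2A1: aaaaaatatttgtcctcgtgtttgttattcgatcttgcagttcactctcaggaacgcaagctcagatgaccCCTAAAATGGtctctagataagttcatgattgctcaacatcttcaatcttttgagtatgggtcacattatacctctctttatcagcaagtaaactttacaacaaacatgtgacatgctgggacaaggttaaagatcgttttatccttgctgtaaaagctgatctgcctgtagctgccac
SULT1B1: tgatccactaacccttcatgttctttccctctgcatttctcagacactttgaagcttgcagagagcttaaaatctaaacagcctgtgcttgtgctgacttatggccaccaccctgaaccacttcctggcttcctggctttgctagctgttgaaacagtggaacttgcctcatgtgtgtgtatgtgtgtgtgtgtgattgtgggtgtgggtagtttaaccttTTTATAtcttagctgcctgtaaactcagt

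The SULT2A1 window held a CArG box from 179 to 170 bases before the start, a motif present in 1.16% of the 35116 promoters of the same length. It was the only member window of the 8 with an entry that held one. Whether this site bears on the SULT2A1 level was not tested. The SULT1E1 window held a TATAAA from 29 to 24 bases before the start (10.7% of promoters) and a GGAATG on the opposite strand from 12 to 7 (11.9%). The SULT1B1 window held TATAAA on the opposite strand, also from 29 to 24 bases before the start. SULT1C3 had TATAAA at that same distance, also on the opposite strand. On the strand of the gene, SULT1C4 had TATAAA from 140 to 135 and SULT1C2 had AGGTCA (12.1% of promoters) from 59 to 54. The SULT2B1 and SULT6B1 windows held none of the 4 motifs, and SULT4A1 had no entry. A match of letters does not show that a factor binds there.

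SULT1B1, whose enzyme sulfates thyroid hormones and small phenols, read 4.08 and 4.49 in the MKL1/2 shRNA arrays and 3.04 and 2.86 in the control arrays. As for SULT1E1, the groups were apart and knockdown replicate 2 was the higher. The log2 difference of 1.34 (SE 0.158, 95% interval 0.95 to 1.72) missed the threshold, with a limma adjusted p of 0.0563. With the spread of the control arrays alone, it passed without knockdown replicate 1, at 1.55 (adjusted p = 0.00935), and without replicate 2, at 1.13 (adjusted p = 0.0173), and did not without control replicate 1 or 2 (adjusted p = 0.687 and 0.648). It also passed with the replicate number as a block (adjusted p = 0.0292) and with robust moderation (adjusted p = 0.0473). Its control values were below the lower quartile of all probes, so no fold is given.

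None of the SULT1C genes, which sit beside each other on chromosome 2, passed the test with all 4 arrays, and differences between them were not tested. SULT1C2, which acts on small phenols, read 6.12 and 5.81 in the MKL1/2 shRNA arrays and 5.23 and 5.20 in the controls, a log2 difference of 0.75 (SE 0.129, 95% interval 0.43 to 1.06, limma adjusted p = 0.109). SULT1C4, known from fetal liver, lung and kidney, read 8.34 and 8.37 in the MKL1/2 shRNA arrays and 9.08 and 8.91 in the controls. This was the lowest of the 9 log2 differences, at -0.64 (SE 0.104, 95% interval -0.90 to -0.39, limma adjusted p = 0.098). Both genes passed only when knockdown replicate 2 was left out, at a log2 difference of 0.90 for SULT1C2 (adjusted p = 0.018) and -0.66 for SULT1C4 (adjusted p = 0.0452), apart from a looser threshold of 0.1 that SULT1C4 also met. SULT1C3 read 3.42 and 3.36 in the MKL1/2 shRNA arrays and 3.38 and 3.29 in the controls. Its groups overlapped below the lower quartile of all probes, and its log2 difference of 0.051 had a 95% interval from -0.18 to 0.29.

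SULT2B1, which sulfates cholesterol and pregnenolone and is known for its role in skin, read 6.16 and 5.95 in the MKL1/2 shRNA arrays and 5.90 and 5.92 in the control arrays. Knockdown replicate 2 lay only just above the higher control, and the log2 difference of 0.15 (95% interval -0.12 to 0.41) did not pass (limma adjusted p = 0.612). SULT4A1, a brain member with no well-established substrate, read 4.06 and 4.20 in the MKL1/2 shRNA arrays and 4.15 and 4.29 in the controls, with overlapping groups (95% interval -0.35 to 0.17). SULT6B1 read 2.84 and 2.79 in the MKL1/2 shRNA arrays and 2.72 and 2.84 in the controls, also overlapping and among the dimmest probes (95% interval -0.21 to 0.27). SULT1A1, the phenol sulfotransferase and no member here, read 5.64 and 5.53 in the MKL1/2 shRNA arrays and 5.61 and 5.88 in the controls (limma adjusted p = 0.614), and its near-identical paralogs could share its probe.

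**Figure D2:**
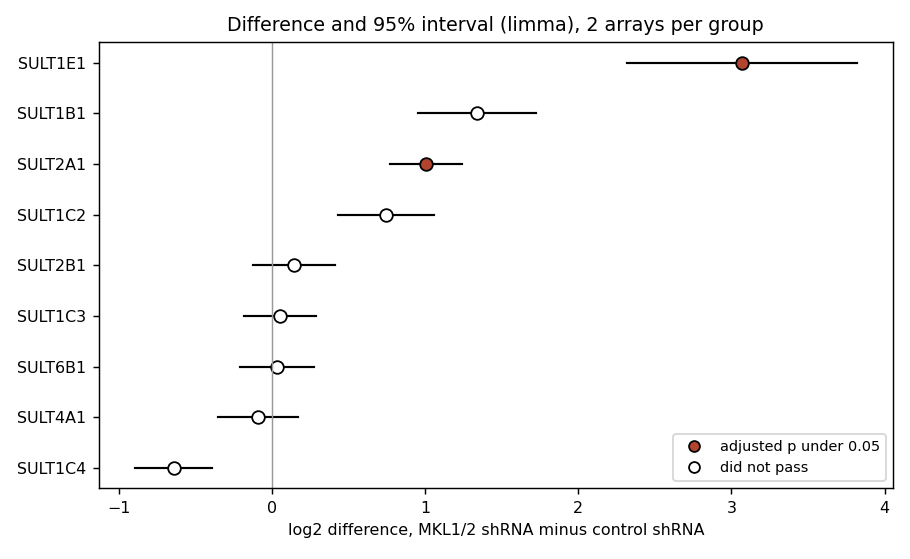
Log2 difference of each member, MKL1/2 shRNA minus control shRNA, with limma's 95% interval and filled points where the adjusted p over all genes was under 0.05. SULT1E1 at 3.07 and SULT2A1 at 1.00 are filled, and SULT1B1 at 1.34 is open with an adjusted p of 0.0563.

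Among themselves, 5 of the 9 members had both knockdown values above both control values, 1 had both below and 3 overlapped. Over all genes the groups did not overlap in 45.5%, made up of 22.5% with knockdown higher and 23% with knockdown lower. By limma's p before adjustment, 5 members lay under 0.05, of which 4 were higher and 1 lower. The shares of all genes were 14.3% in either direction, 6.25% higher and 8.04% lower. At an adjusted p under 0.1, 4 members passed, beside 0.782% of all genes. The median log2 difference of the members was 0.15, that of SULT2B1, beside 0.0082 over all genes tested, and the range was from -0.64 to 3.07. In 5 of the 9 members at least 1 group mean lay under the lower quartile of all probes plus 0.5, and in 4 of these both did.

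SULT1B1 and SULT1E1 lie at the end of a run of UGT2 genes on chromosome 4, which encode glucuronosyltransferases, the other main conjugating enzymes for steroids. UGT2B4, the nearest measured gene on that side, with 2 protein-coding genes between it and SULT1B1, read 8.05 and 6.87 in the MKL1/2 shRNA arrays and 5.59 and 5.89 in the controls. Its log2 difference of 1.72 (SE 0.361) did not pass (limma adjusted p = 0.143), with the knockdown arrays 1.18 apart. None of 6 measured UGT2 genes passed over all genes tested, 4 had all knockdown values higher and none lower (22.5% and 23% of all genes), and the median log2 difference was 0.51. After UGT2B4 the smallest p was that of UGT2B10, at 4.51 and 4.06 in the MKL1/2 shRNA arrays and 3.71 and 3.27 in the controls (adjusted p = 0.187). All 6 UGT2 genes were higher in knockdown replicate 1 than in replicate 2, whereas SULT1B1 and SULT1E1 were higher in replicate 2. These genes are close paralogs, and all but UGT2B4 were near or below the lower quartile in both groups. On the other side of SULT1E1, the casein gene CSN1S1 read 2.43 and 2.54 in the MKL1/2 shRNA arrays and 2.74 and 2.35 in the controls.

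The other members' neighbours did not pass either. On chromosome 2, the choline transporter gene SLC5A7 before SULT1C3 lay at -0.060 and the golgin gene GCC2 after SULT1C4 at -0.18 on the log2 scale. Beside SULT2A1 on chromosome 19, the retinal factor gene CRX lay at 0.019 and BSPH1 at -0.24. The neighbours of SULT2B1 were LMTK3 at 0.16 and FAM83E at 0.11, those of SULT4A1 EFCAB6 at 0.054 and PNPLA5 at 0.0084, and those of SULT6B1 EIF2AK2 at 0.15 and CEBPZ at 0.084. These 10 log2 differences had limma adjusted p-values from 0.402 for BSPH1 to 0.983 for PNPLA5.

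**Figure D3:**
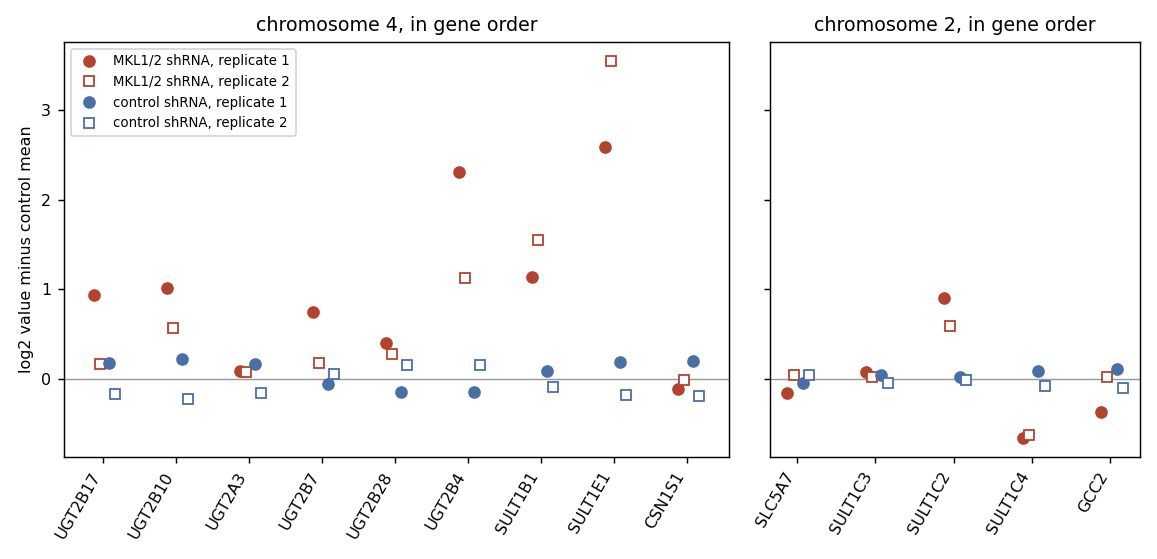
Log2 value minus the control mean on each array, for measured genes around SULT1B1 and SULT1E1 on chromosome 4 and around the SULT1C genes on chromosome 2, evenly spaced in gene order. SULT1E1 lay 2.59 and 3.55 above its control mean in the knockdown arrays, SULT1C2 0.90 and 0.59 above, and SULT1C4 0.66 and 0.63 below.

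No gene of sulfate donor supply passed the test. PAPS is made by the synthases PAPSS1 and PAPSS2, and PAPSS2 read 9.70 and 9.49 in the MKL1/2 shRNA arrays and 8.85 and 8.88 in the controls. Its log2 difference of 0.73 (SE 0.11) did not pass (limma adjusted p = 0.0889). PAPSS1 read 7.51 and 7.48 in the MKL1/2 shRNA arrays and 7.62 and 7.64 in the controls (adjusted p = 0.561). The mitochondrial sulfite oxidase gene SUOX, which forms sulfate, read 6.61 and 7.00 in the MKL1/2 shRNA arrays and 7.35 and 7.39 in the controls (log2 difference -0.56, adjusted p = 0.191). Of the 8 measured, 1 had all knockdown values higher and 6 all lower (22.5% and 23% of all genes), and the median log2 difference was -0.14.

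Enzymes that remove sulfate, and those that add it in the Golgi, did not pass the test. STS, the steroid sulfatase that reverses the sulfation of estrone and DHEA, read 6.79 and 7.08 in the MKL1/2 shRNA arrays and 6.68 and 6.64 in the controls (log2 difference 0.28, SE 0.124, limma adjusted p = 0.386). Of 18 measured sulfatases and their activating factors none passed, 3 had all knockdown values higher and 6 all lower (22.5% and 23% of all genes), and the median log2 difference was -0.037. The smallest p-values were those of the arylsulfatase genes ARSJ at -0.42 (adjusted p = 0.217) and ARSK at 0.31 (adjusted p = 0.338). Of 36 measured Golgi sulfotransferases, membrane enzymes that act on proteins and glycans, none passed either, 10 were higher and 5 lower without overlap (22.5% and 23% of all genes), and the median log2 difference was 0.079. NDST3, an enzyme of heparan sulfate, read 3.31 and 3.42 in the MKL1/2 shRNA arrays and 4.13 and 4.00 in the controls (adjusted p = 0.0838), and TPST2, a tyrosylprotein sulfotransferase, read 7.94 and 7.87 in the MKL1/2 shRNA arrays and 7.12 and 7.33 in the controls (adjusted p = 0.1).

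No measured regulator of hepatic sulfotransferase genes passed the test. These regulators are nuclear receptors and liver factors known to act on SULT1E1 or SULT2A1, in part from work in mice. Of 15 measured, 4 had all knockdown values higher and 1 all lower (22.5% and 23% of all genes), and the median log2 difference was 0.03. AHR, the receptor for aryl hydrocarbons, had the highest, at 10.48 and 10.17 in the MKL1/2 shRNA arrays and 9.86 and 9.78 in the controls (log2 difference 0.51, SE 0.129, limma adjusted p = 0.187). NR1I3, the receptor CAR, read 5.14 and 5.08 in the MKL1/2 shRNA arrays and 4.99 and 4.87 in the controls (adjusted p = 0.472). Besides AHR and NR1I3, all knockdown values were higher for NFE2L2 (log2 difference 0.19) and ESRRA (0.13), and all were lower for CEBPA (-0.12). The groups overlapped for the other 10, whose log2 differences ran from -0.068 for NR3C1 to 0.14 for RORA. Among these, PPARA, RXRA, NR5A2 and ONECUT1 lay at 0.0082, 0.03, 0.014 and 0.016.

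Transporters of sulfated steroids and bile acids did not pass the test. SLCO1B3, a hepatic uptake carrier of estrone sulfate and bile acids, read 7.08 and 6.40 in the MKL1/2 shRNA arrays and 5.49 and 5.64 in the controls (log2 difference 1.18, limma adjusted p = 0.123). The organic anion transporter gene SLC22A9 read 7.70 and 7.93 in the MKL1/2 shRNA arrays and 7.07 and 7.04 in the controls (log2 difference 0.76, SE 0.114, limma adjusted p = 0.0847). Of 18 measured, 6 had all knockdown values higher and 2 all lower (22.5% and 23% of all genes), and the median log2 difference was 0.26, beside 0.0082 over all genes.

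**Figure D4:**
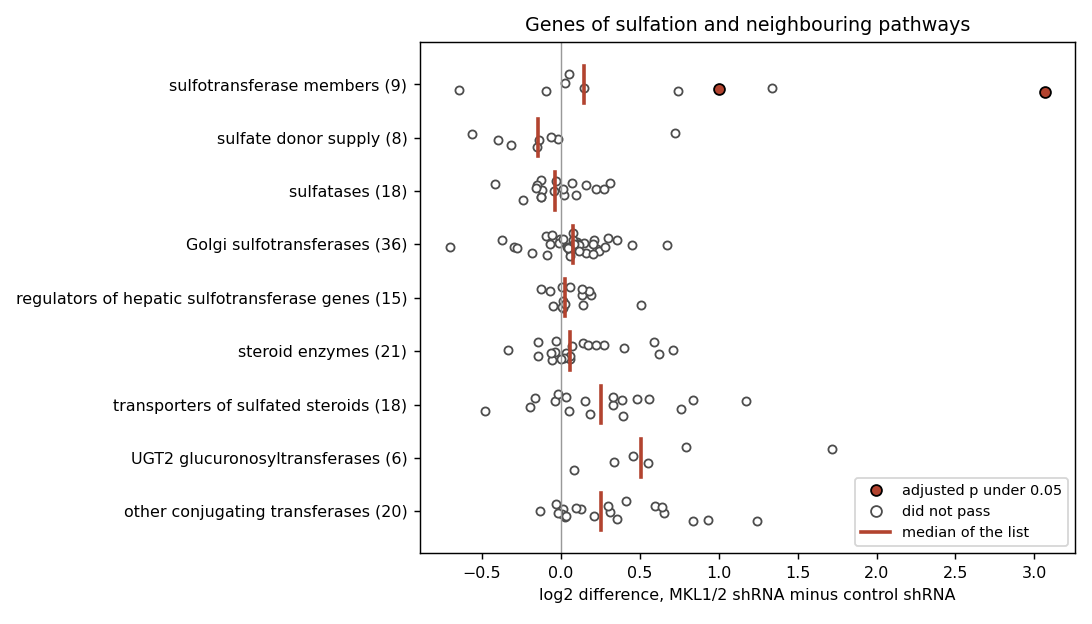
Log2 difference, MKL1/2 shRNA minus control shRNA, of each measured gene in the sulfotransferase family and 8 related lists, with the number measured in brackets, a bar at the median and filled points where the adjusted p over all genes was under 0.05. Only SULT1E1 and SULT2A1 are filled, and the list medians ran from -0.14 for donor supply to 0.51 for the UGT2 genes.

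Genes with the most similar profile over the 4 arrays were found by the Euclidean distance between log2 values centred on the control mean. For SULT1E1 these were CTSE, the protease cathepsin E, at a distance of 1.05, EDNRB, an endothelin receptor, at 1.07, the metallothionein gene MT1H at 1.40, TNFSF10, the death ligand TRAIL, at 1.55 and FGL1, a secreted hepatocyte protein, at 1.64. EDNRB and MT1H shared the higher value in knockdown replicate 2, while CTSE, TNFSF10 and FGL1 were higher in replicate 1. EDNRB read 5.76 and 7.50 in the MKL1/2 shRNA arrays and 4.19 and 4.18 in the controls. MT1H read 8.97 and 9.55 in the MKL1/2 shRNA arrays and 7.14 and 7.15 in the controls. For SULT2A1 the closest was CFI, complement factor I, at a distance of 0.052, with 8.59 and 8.57 in the MKL1/2 shRNA arrays and 7.60 and 7.58 in the controls. ENTPD5, CD3D, GSTM4 and HEBP1 followed at 0.19 to 0.20. With 4 arrays in 2 groups, the distance mostly reflects the size of the group difference and says nothing of shared control.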

How the data were processed

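One whole-transcript array, with biotin label and a single colour, was run per sample for 4 HuH7 cultures. The authors deposited log2 values for 33297 probes, made with Partek per the submitters' processing notes; how background, normalization and summarization were done is not given in the sources used here. Values run from 1.03 to 13.65, from which the scale was read as log2, and no detection call stands behind a value. The platform annotation gives 1 gene for 19460 probes, several for 1754 and none for 12083. Entrez identifiers linked 19429 of the first to current RefSeq symbols (GRCh38.p14). The probe with the highest mean was kept for 769 genes with several, which left 18417 genes.

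Knockdown minus control was fitted in R 4.3.3 with limma 3.58.1 (lmFit and eBayes, two-sided, no covariate), adjusted by Benjamini-Hochberg over every gene at 0.05, with 2 residual and 4.12 prior degrees of freedom. The procedure was tested on simulated data, where 6.12% of calls were false on average. Both groups had the same spread there, so the test does not cover the wider spread between the knockdown arrays. At most 174 probe values were identical between arrays, so no array was a duplicate. Same-numbered samples were not treated as pairs, since no label ties a number to a shared day. Members and lists were chosen with earlier results of these data known. Named genes are all members, their nearest measured neighbours, the 5 most similar profiles of SULT1E1 and SULT2A1 and the 2 smallest p-values in each list; further pathway genes were named for their role. No fold is printed where a group mean is under the lower quartile plus 0.5. Alternatives changed the filter, normalization, probe choice, moderation and threshold, added a replicate block or left out each array.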

Additional observations from a re-analysis of the deposited data

How the results depend on the processing

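With all 4 arrays, 32 genes passed in limma, 15 higher and 17 lower. This count was 52 after quantile normalization, 51 with robust moderation, 144 at a threshold of 0.1 and 93 with the replicate block. It was 0 with all probes and 0 without moderation, where 3486 and 1840 had an unadjusted p under 0.05 in limma. Leaving out an array gave 0 to 781, with 0 without control replicate 1 or 2, where 866 and 1219 had an unadjusted p under 0.05, 299 without knockdown replicate 1 and 781 without replicate 2. Of the members, 2 passed. This was 1 without the dimmest 40% of genes, where only SULT1C4, SULT2A1 and SULT2B1 were tested and SULT1E1 was not. It was 0 with all probes and 0 without moderation (5 members at an unadjusted p under 0.05 in both), and 4 at a threshold of 0.1. With the replicate block 3 passed, SULT1B1 being added. The deviations of same-numbered samples correlated at -0.067 over genes. Leaving out an array gave 0 to 5. SULT6B1 changed sign to -0.0019 with column medians subtracted and ranged from -0.030 without control replicate 1 to 0.091 without control replicate 2; the cause was not tested. The other members and SULT1A1 kept their sign in every alternative run. The number of arrays limits the precision.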

Other observations

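Among 20 other conjugating transferases measured, none passed over all genes tested, 10 had all knockdown values higher and 1 all lower (22.5% and 23% of all genes), and the median log2 difference was 0.26, beside 0.0082 over all genes. The glutathione transferase genes GSTM4 and GSTA1 had the smallest p. GSTM4 read 8.34 and 8.48 in the MKL1/2 shRNA arrays and 7.59 and 7.36 in the controls (limma adjusted p = 0.0688). GSTA1 read 6.29 and 6.82 in the MKL1/2 shRNA arrays and 5.32 and 5.31 in the controls (adjusted p = 0.0838). Both have close paralogs.

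Of 21 measured steroid enzymes, none passed, 6 had all knockdown values higher and 4 all lower (22.5% and 23% of all genes), and the median log2 difference was 0.057. CYP19A1, the aromatase that makes the estrogens that SULT1E1 sulfates, read 5.25 and 5.26 in the MKL1/2 shRNA arrays and 4.75 and 4.56 in the controls (limma adjusted p = 0.119). HSD11B2, which inactivates cortisol, read 7.24 and 7.43 in the MKL1/2 shRNA arrays and 6.64 and 6.79 in the controls (adjusted p = 0.121).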
